A study of Mus musculus with 6 samples.

Results

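The transcripts described here encode the proteins that bring glucose into the cell, break it down by glycolysis, route it through the pentose phosphate pathway and export the lactate that results. The group was defined by a fixed list of 35 gene symbols, and all 35 were found among the 24589 genes of the deposited expression table. All 35 also reached the level required for testing, 1 TPM or more in 3 or more libraries, as did 10866 genes in all. TPM is a transcript's abundance per unit of its length, with every library scaled to an equal sum. None of the 35 was listed at 0 in any library.

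The libraries were made from total RNA of wild-type primary CD8+ T cells, the cytotoxic lymphocytes, which were purified with magnetic beads. The source was C57BL/6 mice, from whose spleens and peripheral nodes the cells were taken. All cells were first activated through CD3 and CD28 in Click's medium. They were then cultured for 24 h either with 20 µM trans-vaccenic acid (TVA), a long-chain trans fatty acid of ruminant milk and meat, or with its solvent DMSO, with 3 libraries in each group. The comparison asked how TVA treatment alters transcript levels in these cells, with DMSO as the only control, so no unactivated cells, second dose or second time was compared. The labels do not say whether the 3 libraries of a group came from separate mice or cultures, and p-values therefore measure only the spread between these libraries.

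Glycolysis converts glucose to pyruvate in the cytosol and yields ATP without oxygen. Activated T cells raise glucose uptake and glycolysis sharply and turn much of the pyruvate into lactate, which regenerates NAD+ and leaves through monocarboxylate transporters. The pentose phosphate pathway branches off at glucose 6-phosphate and provides NADPH and the ribose of nucleotides. Transcription factors known to drive many of these genes are MYC and HIF-1, the hypoxia-inducible factor that activated T cells also accumulate in air.

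The cell type label was checked against marker genes. Cd3e, Cd3d, Cd3g, Cd8a and Cd8b1, which define CD8+ T cells, lay between 274 and 416 TPM in every library, whereas the CD4 lineage genes Cd4 and Zbtb7b spanned 3.33 to 4.46 and 4.63 to 6.83 TPM. Of the B cell genes, Ms4a1 and Pax5 did not exceed 0.46 TPM and Cd79a did not exceed 1.07 TPM, while Cd79b was at 9.15 to 13.3 TPM. The highest genes of the NK cell, red cell and myeloid lists were Klrc1 (35.5 to 47.8 TPM), Hba-a2 (16.3 to 49.3 TPM) and Lyz2 (28.9 to 41.3 TPM). Across all genes tested, limma called 574 higher and 351 lower with TVA, a share of 62.1% higher that was 35.4% after median-of-ratios scaling. DMSO replicate 2 stood apart from its group, because its correlation with the TVA libraries (0.9957 to 0.9964 on the log2(TPM + 1) scale across genes) was above that with DMSO replicates 1 and 3 (0.9929 and 0.9945). The log2 difference between the groups was also correlated across genes with transcript GC content (Spearman's rho -0.40, a description with genes not independent). TPM keeps no trace of read depth, so the depth of each library is unknown. These are bulk libraries, in which fewer cells of a type and less RNA per cell cannot be told apart.

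Of the 35 genes, 5 fell with TVA and none rose at an adjusted p under 0.05 (limma on log2(TPM + 1), adjusted over all 10866 genes tested). Those that fell were the glucose transporter genes Slc2a1 and Slc2a3 and the glycolytic genes Pfkp, Pgam1 and Eno3. Over all genes tested, 3.23% were called lower and 5.28% were called higher. At an unadjusted p under 0.05 the list held 10 genes lower and 2 higher, where 10.3% of all genes tested were lower and 21.5% higher by that measure. The median log2 difference of the 35 genes was -0.07, against 0.04 for all genes tested, with 23 estimates below 0 and 12 above. Most of the 35 genes had a transcript GC content above the median of all genes tested (50.4%). After GC correction, 7 of the 35 were called lower and 1 higher, where 534 and 590 of all genes tested were.

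Without DMSO replicate 2, 7 of the genes passed as lower and 1 as higher, where 1019 and 1223 of all 10866 genes tested did. The count of genes lower was 6 without DMSO replicate 1, 3 without DMSO replicate 3, 1 without TVA replicate 1, 2 without TVA replicate 2 and 0 without TVA replicate 3. Over all genes tested the counts lower were, in the same order, 320, 151, 74, 64 and 72. With the replicate number as a block, 2 genes passed as lower, where 125 of all genes tested did. With all genes above 0 TPM in the test 3 did, where 224 of 16749 did.

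**Figure D1:**
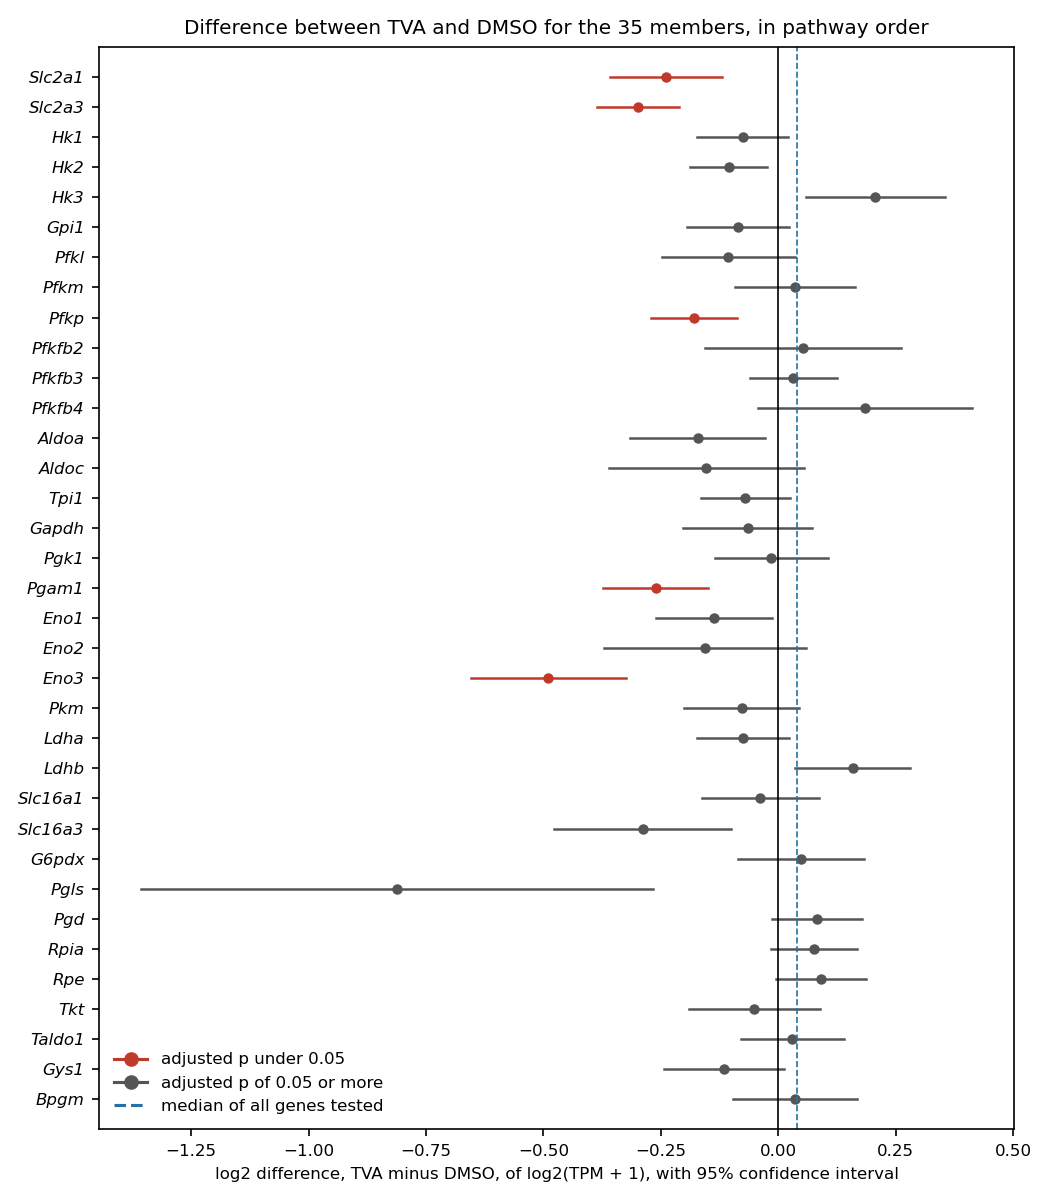
Difference between TVA and DMSO on the log2(TPM + 1) scale for each of the 35 genes, listed from glucose uptake to the side branches, with points at the limma estimate and bars at its 95% confidence interval. The 5 genes past the threshold, in red, all lie below 0, and the dashed line marks the median of all genes tested at 0.04.

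The upstream sequences of 4 of the genes that fell are shown. HIF-1 and MYC are the best-known regulators of this pathway, and the letters they bind can be looked up directly. The sequence of Ldha, which was not called (limma adjusted p 0.257), was added because it held the most ACGTG matches of the promoters examined. Each run is the stretch of up to 250 bases that precedes the start of the RefSeq transcript in mouse assembly GRCm38.p6, ended before any annotated exon. Capitals mark ACGTG and GCGTG, the core letters of hypoxia response elements, on either strand (CACGT and CACGC when read on the strand printed), and CACGTG, the E-box of MYC, which contains ACGTG on both strands.
Slc2a1, chr4:119108495-119108710, plus strand: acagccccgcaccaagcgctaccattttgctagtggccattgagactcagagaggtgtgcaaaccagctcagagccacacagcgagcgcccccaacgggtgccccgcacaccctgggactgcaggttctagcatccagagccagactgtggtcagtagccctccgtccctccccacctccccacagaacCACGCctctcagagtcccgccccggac
Pfkp, chr13:6648778-6649021, minus strand: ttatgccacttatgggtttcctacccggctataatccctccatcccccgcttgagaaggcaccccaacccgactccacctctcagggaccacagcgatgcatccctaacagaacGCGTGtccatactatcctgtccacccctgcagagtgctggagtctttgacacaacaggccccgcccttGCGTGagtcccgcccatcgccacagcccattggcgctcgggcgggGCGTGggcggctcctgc
Pgam1, chr19:41911621-41911870, plus strand: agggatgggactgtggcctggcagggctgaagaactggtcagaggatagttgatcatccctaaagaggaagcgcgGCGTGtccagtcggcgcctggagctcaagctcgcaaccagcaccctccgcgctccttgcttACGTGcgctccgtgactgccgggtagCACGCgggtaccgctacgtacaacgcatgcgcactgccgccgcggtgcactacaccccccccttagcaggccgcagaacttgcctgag
Eno3, chr11:70656926-70657175, plus strand: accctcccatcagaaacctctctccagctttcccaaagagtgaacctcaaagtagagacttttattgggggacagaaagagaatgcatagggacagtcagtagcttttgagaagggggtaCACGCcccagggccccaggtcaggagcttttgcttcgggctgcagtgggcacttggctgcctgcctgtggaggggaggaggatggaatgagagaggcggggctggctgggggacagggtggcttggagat
Ldha, chr7:46845554-46845803, plus strand: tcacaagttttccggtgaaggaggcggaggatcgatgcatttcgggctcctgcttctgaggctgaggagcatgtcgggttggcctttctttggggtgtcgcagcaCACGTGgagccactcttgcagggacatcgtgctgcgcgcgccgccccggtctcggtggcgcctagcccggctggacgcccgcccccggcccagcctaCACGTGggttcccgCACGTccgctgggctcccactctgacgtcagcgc

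The Slc2a1 and Eno3 stretches each held 1 GCGTG, the Pfkp stretch held 3, and the Pgam1 stretch held 2 together with 1 ACGTG. The Ldha stretch held 2 E-boxes and 1 further ACGTG, which gave 5 matches to ACGTG when both strands were counted. None of the other stretches printed held CACGTG. The upstream window of another RefSeq start of Ldha (chr7:46846832-46847081), not printed, had 0 ACGTG and 1 GCGTG. The full 250-base window of Slc2a1 also held 1 ACGTG, which runs past the end of the stretch printed and is included in the counts that follow. RefSeq promoters were matched for 34 of the 35 genes, all but Slc2a3, with 49 transcript starts among them. In the 250 bases upstream, GCGTG was present in 27 of these 49 promoters (55.1%), against 45.7% of the promoters of genes tested and 28.2% of all promoters. ACGTG was present in 17 (34.7%), against 22.3% and 16.6%, and CACGTG in 5 (10.2%), against 8.65% and 6.02%. Some windows of the same gene overlap, so a match can be counted more than once. By gene, GCGTG was present for 22 of the 34 and for 4338 of the 8469 genes tested that had a promoter. ACGTG was present for 13 and 2187, and CACGTG for 5 and 874. These matches describe letters in a window and not binding.

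Glucose enters T cells through facilitative transporters, and the transcripts of the main pair, Slc2a1 and Slc2a3, fell with TVA. Slc2a1 (GLUT1, the transporter that T cells place on their surface on activation, GRCm38 chr4:119108711-119137983, plus strand) was at 101, 89.9 and 91.0 TPM in DMSO replicates 1, 2 and 3 and at 80.4, 78.6 and 79.3 TPM in TVA replicates 1, 2 and 3. All TVA libraries lay below all DMSO libraries and were close to each other. The mean TPM fell by 15.6% (log2 difference -0.24, SE 0.05, limma adjusted p 0.0348). It no longer passed without DMSO replicate 3 (0.063), without TVA replicate 1 (0.104), 2 (0.155) or 3 (0.141), with a replicate block (0.0571) and with all genes above 0 TPM (0.062).

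Slc2a3 (GLUT3, a transporter of high glucose affinity, chr6:122727809-122801640, minus strand) was at 36.6, 35.8 and 36.1 TPM with DMSO and at 28.6, 29.6 and 29.4 TPM with TVA. The gap between the groups was wide against the spread within either of them. Its mean TPM fell by 19.2% (log2 difference -0.30, SE 0.04, limma adjusted p 0.00739), the lowest adjusted p of the 35 genes. Of 14 alternative settings it passed in 13, with an adjusted p of 0.0511 without TVA replicate 3. On the TPM scale Slc2a3 made up 27.8% ± 1.1 (SD, n = 3) of the summed level of this pair with DMSO and 26.9% ± 0.59 with TVA, and these shares overlapped between the groups. Of the transporter genes outside the 35, Slc2a6 was at 30.6 to 38.9 TPM with DMSO and 27.5 to 28.3 TPM with TVA, and Slc2a8 was at 4.82 to 5.58 TPM with DMSO and 5.69 to 5.94 TPM with TVA, and neither passed (limma adjusted p 0.0658 and 0.152).

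**Figure D2:**
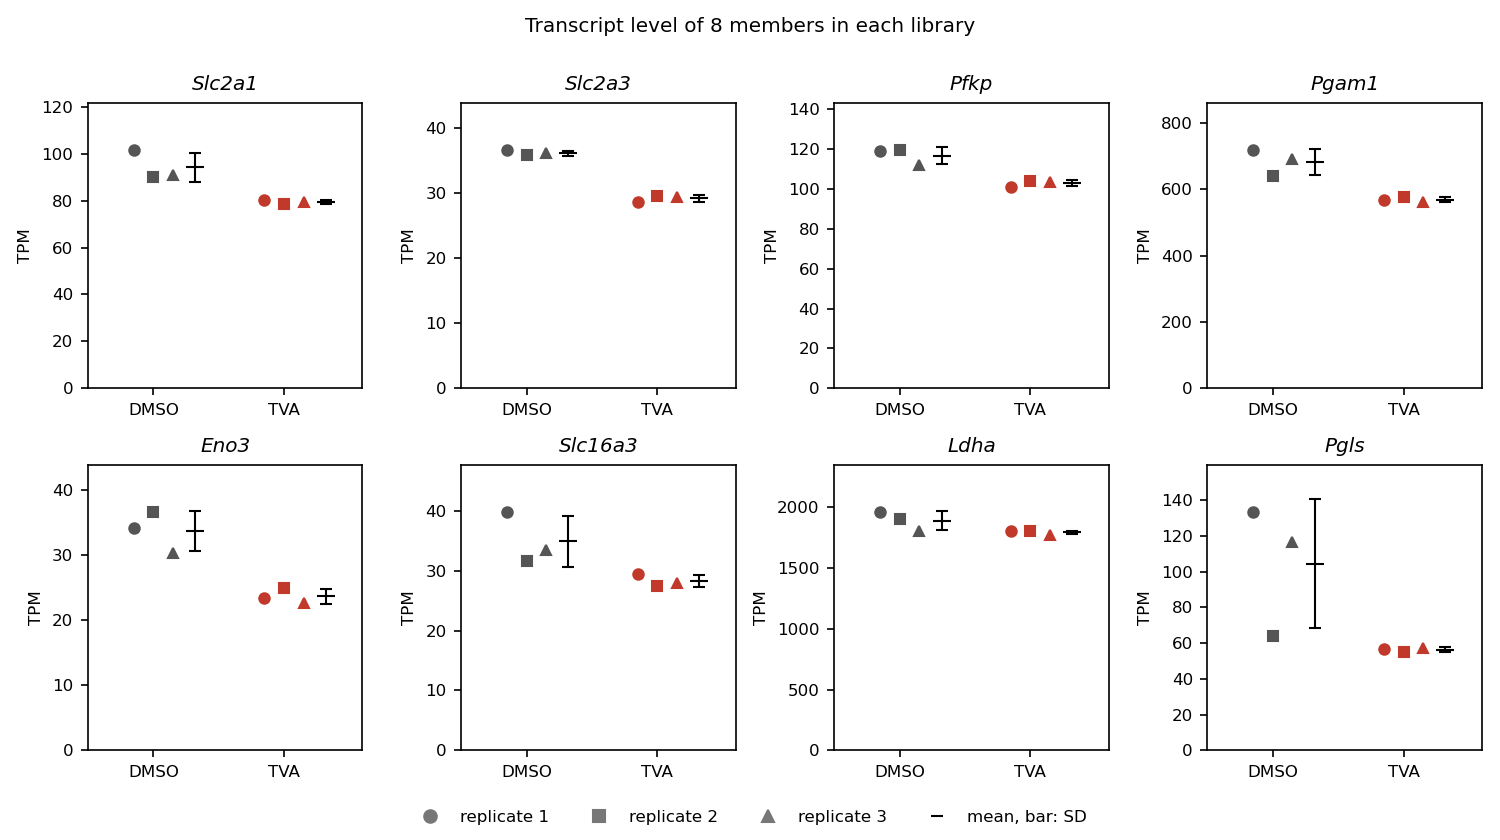
TPM in each library for 8 of the 35 genes, with marker shape giving the replicate number and the bar beside each group giving mean ± SD of 3 libraries, on linear axes that start at 0. The TVA values lie below all DMSO values in each panel, and DMSO replicate 2 of Pgls (63.9 TPM) lies near the TVA libraries.

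Hexokinases trap glucose in the cell by phosphorylation, and none of the 3 genes passed the threshold. Hk1, the most abundant by TPM, was at 60.0, 58.9 and 55.4 TPM with DMSO and at 54.7, 55.8 and 54.7 TPM with TVA, with overlap between the groups (log2 difference -0.08, limma adjusted p 0.249). Hk2, the isozyme that activation and HIF-1 are known to raise, was at 47.9, 47.6 and 46.9 TPM with DMSO and at 43.7, 44.7 and 43.9 TPM with TVA. Its groups did not overlap, with a TVA mean 0.928 times that of DMSO (limma adjusted p 0.0938), and it passed in 1 of 14 alternatives, after median-of-ratios scaling (0.0462).

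Hk3, an isozyme known mainly from myeloid cells, differed in the opposite direction, at 2.18, 2.07 and 2.17 TPM with DMSO and at 2.72, 2.63 and 2.52 TPM with TVA (log2 difference 0.21, limma adjusted p 0.0788). The groups did not overlap, and it passed without the variance trend (0.0365) and after GC correction (0.0489). The summed level of 10 myeloid marker genes was 57.8 to 60.3 TPM in the DMSO libraries and 76.4 to 81.2 TPM in the TVA libraries. Of these markers 9 were tested and 3 were called higher (Lyz2, S100a9 and Mpeg1), where 5.28% of all genes tested were. None of the 10 was at 0 in any library. Of the 9 estimates 8 were above 0, and that of Spi1 was below (log2 difference -0.30, limma adjusted p 0.192). The groups overlapped for Spi1 and S100a8. Lyz2 alone averaged 30.3 TPM with DMSO and 39.7 TPM with TVA, so it made up much of the summed level. The part of the myeloid markers in the Hk3 values was not tested.

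Between the hexokinase step and the splitting of the sugar, Gpi1 (glucose phosphate isomerase) ranged from 257 to 288 TPM with DMSO and from 255 to 260 TPM with TVA, with overlapping groups. Phosphofructokinase carries out the committed step of glycolysis. Pfkp, the platelet-type isozyme and the most abundant of the 3 genes here by TPM (chr13:6579768-6648777, minus strand), was at 119, 119 and 112 TPM with DMSO and at 101, 104 and 103 TPM with TVA. No TVA library reached the lowest DMSO library, and the mean TPM fell by 11.9% (log2 difference -0.18, SE 0.04, limma adjusted p 0.0367). It no longer passed without TVA replicate 1 (0.119), 2 (0.15) or 3 (0.149), with a replicate block (0.0726), without the variance trend (0.054) and with all genes above 0 TPM (0.0503). Annotated exons of Pfkp overlap those of Pitrm1, which was at 68.4 to 75.3 TPM with DMSO and 79.4 to 81.4 TPM with TVA, so reads in the shared bases are of uncertain origin.

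The other phosphofructokinase genes did not pass. Pfkl, the liver-type isozyme, spanned 60.6 to 71.3 TPM with DMSO and 59.5 to 62.7 TPM with TVA, and Pfkm, the muscle-type isozyme, stayed between 6.95 and 7.79 TPM over all 6 libraries. The bifunctional Pfkfb enzymes set the level of fructose 2,6-bisphosphate, the main activator of phosphofructokinase, and all 3 estimates were above 0 with limma adjusted p from 0.234 to 0.709. Pfkfb3, which accounted for 92.1% ± 0.76 (SD, n = 3) of the summed TPM of these genes with DMSO, was at 37.4, 37.6 and 35.9 TPM with DMSO and at 37.2, 37.5 and 38.8 TPM with TVA. Its estimate of 0.03 was -0.01 after median-of-ratios scaling. Pfkfb2 and Pfkfb4 stayed at or below 2.18 TPM in every library, and only Pfkfb4 had groups that did not overlap, with TVA above.

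Of the 35 genes 8 averaged over 500 TPM: Ldha and, from aldolase to pyruvate kinase, Aldoa, Tpi1, Gapdh, Pgk1, Pgam1, Eno1 and Pkm. Aldoc, Eno2 and Eno3, which belong to the same steps, were far lower. Aldoa, the main aldolase, was at 1046, 958 and 878 TPM with DMSO and at 849, 861 and 841 TPM with TVA. The groups did not overlap but the DMSO libraries were widely spread (log2 difference -0.17, SE 0.06, limma adjusted p 0.111). Aldoc, the brain-type aldolase, was at 1.19 to 1.33 TPM with DMSO and 0.84 to 1.17 TPM with TVA, without overlap (limma adjusted p 0.27). Tpi1 (triose phosphate isomerase) spanned 550 to 594 TPM with DMSO and 534 to 552 TPM with TVA, with overlap.

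Gapdh, the dehydrogenase that is often used as a reference gene, was the most abundant of the 35 genes on the TPM scale. It was at 2917, 2880 and 2529 TPM with DMSO and at 2652, 2669 and 2619 TPM with TVA, so that the TVA libraries lay within the DMSO range (log2 difference -0.07, limma adjusted p 0.469). Pgk1, the kinase of the next step, likewise overlapped, at 1036 to 1177 TPM with DMSO and 1071 to 1093 TPM with TVA. Its estimate of -0.02 was 0.04 without DMSO replicate 2.

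Pgam1 (phosphoglycerate mutase, chr19:41911923-41918660, plus strand) was at 717, 641 and 690 TPM with DMSO and at 569, 576 and 561 TPM with TVA. The TVA libraries were tightly grouped below the lowest DMSO library, which was replicate 2. The mean TPM fell by 16.7% (log2 difference -0.26, SE 0.05, limma adjusted p 0.0222). It no longer passed with a replicate block (0.0573), without DMSO replicate 3 (0.0626) and without TVA replicate 1 (0.0944), 2 (0.105) or 3 (0.12). Of the 31-base words in its longest coding transcript, 42.1% also occur in other annotated genes, processed copies among them, so its level carries an uncertainty from read assignment. That share was 84.1% for Gapdh, 77.2% for Eno1, 68.3% for Pgk1, 50.9% for Pkm, 41.4% for Ldhb, 34.2% for Ldha and 0 for Slc2a1, Slc2a3, Eno3, Slc16a1, Slc16a3 and Pgls.

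Enolase makes phosphoenolpyruvate and is encoded by 3 genes of the list. Eno3, the muscle-type isozyme (chr11:70657202-70662513, plus strand), was at 34.3, 36.6 and 30.4 TPM with DMSO and at 23.5, 25.0 and 22.7 TPM with TVA. Every TVA value was below every DMSO value. The mean TPM fell by 29.8%, the largest fall among the 5 genes called (log2 difference -0.49, SE 0.07, limma adjusted p 0.0127). It passed in 12 of 14 alternatives and failed without TVA replicate 1 (0.0654) or 3 (0.0686).

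Eno1, the enolase of most tissues, was at 1352, 1293 and 1182 TPM with DMSO and at 1172, 1153 and 1150 TPM with TVA. The lowest DMSO library was only slightly above the highest TVA library (log2 difference -0.14, SE 0.05, limma adjusted p 0.128). Eno1 supplied 97.2% ± 0.18 (SD, n = 3) of enolase TPM with DMSO and 97.7% ± 0.11 with TVA, while Eno3 supplied 2.57% ± 0.15 and 2.00% ± 0.098. Eno2, the neuronal isozyme, was at 2.79 to 4.12 TPM. Pkm, which encodes the pyruvate kinases of proliferating cells and muscle, spanned 1111 to 1264 TPM with DMSO and 1119 to 1155 TPM with TVA and overlapped between the groups. In all, 15 of the 17 glycolytic enzyme genes had estimates below 0, 3 of them past the threshold. Over all genes tested 3.23% were called lower and 5.28% higher. The median log2 difference of these 17 genes was -0.11, against 0.04 for all genes tested.

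Lactate dehydrogenase interconverts pyruvate and lactate. Ldha, the form that favours lactate production, was at 1957, 1904 and 1807 TPM with DMSO and at 1802, 1803 and 1775 TPM with TVA. The groups did not overlap, though by a margin far smaller than the DMSO range (log2 difference -0.07, limma adjusted p 0.257). Ldhb, the form that favours pyruvate, was at 41.6, 47.3 and 42.6 TPM with DMSO and at 48.6, 48.5 and 49.8 TPM with TVA. Its groups did not overlap in the other direction, with DMSO replicate 2 near the TVA libraries (log2 difference 0.16, limma adjusted p 0.0943), and it passed as higher without DMSO replicate 2 (log2 difference 0.21, limma adjusted p 0.0146). The share of Ldhb in the summed TPM of both genes was 2.27% ± 0.17 (SD, n = 3) with DMSO and 2.66% ± 0.06 with TVA.

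Lactate leaves the cell through monocarboxylate transporters. Slc16a1 (MCT1, which carries lactate in both directions) was at 115, 101 and 110 TPM with DMSO and at 103, 108 and 106 TPM with TVA, all within the DMSO range. Slc16a3 (MCT4, the exporter of strongly glycolytic cells, chr11:120948480-120960868, plus strand) was at 39.7, 31.6 and 33.5 TPM with DMSO and at 29.4, 27.5 and 27.9 TPM with TVA. The groups did not overlap, with DMSO replicate 1 well above the rest. The log2 difference was -0.29 (SE 0.08, limma adjusted p 0.0627), which missed the threshold. It passed in 5 of 14 alternatives, among them without DMSO replicate 1 (-0.20, 0.0491), without DMSO replicate 2 (-0.36, 0.017) and after GC correction (-0.19, 0.0282).

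Within the isozyme families, the share of each gene in the family's summed TPM was compared for 16 genes. The groups did not overlap for 9 of these shares. By level, 27.3% of all genes tested lay wholly above and 11.2% wholly below with TVA. Shares of a family sum to its whole, so a rise of 1 share entails a fall of another, and the 9 are not separate results. The widest difference in percentage points was that of Slc16a3, from 24.3% ± 1.1 (SD, n = 3) of the monocarboxylate transporter TPM with DMSO to 21.1% ± 0.92 with TVA. With 3 libraries against 3, a two-sided exact permutation test cannot go below p = 0.1, and the adjusted value of these 9 shares was 0.178, so no share could pass. Pfkm (3.87% to 4.41%), Hk3 (1.99% to 2.58%) and Pfkfb4 (4.32% to 5.06%) had larger mean shares with TVA, and Hk2 (44.1% to 43.3%) and Pfkfb3 (92.1% to 91.2%) smaller ones.

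None of the 7 pentose phosphate genes passed the threshold, and 5 of their estimates were above 0 and 2 below. G6pdx, the X-linked gene of the entry enzyme, spanned 53.9 to 61.2 TPM with DMSO and 58.7 to 62.9 TPM with TVA. Pgd, the second NADPH-producing dehydrogenase of the pathway, spanned 105 to 112 TPM with DMSO and 112 to 117 TPM with TVA. Rpia and Rpe, the isomerase and epimerase that shape ribose, had TVA values above all DMSO values, at 74.7 to 79.0 against 79.4 to 83.4 TPM for Rpia and 48.5 to 50.6 against 50.9 to 54.5 TPM for Rpe, with limma adjusted p of 0.219 and 0.176. The estimate of Rpe (0.09) was -0.01 after GC correction. Tkt and Taldo1, transketolase and transaldolase of the non-oxidative arm, overlapped between the groups, with log2 differences of -0.05 and 0.03.

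Pgls, which encodes the lactonase between G6pdx and Pgd in the oxidative arm (chr8:71592176-71601092, plus strand), was unlike the rest. It was at 133, 63.9 and 116 TPM with DMSO and at 56.7, 55.0 and 57.5 TPM with TVA. DMSO replicate 2 lay close to the TVA libraries and far from its own group. The log2 difference was -0.81 with an SE of 0.23 (limma adjusted p 0.0676). Without DMSO replicate 2 it was -1.13 (limma adjusted p 6.59e-05), and after GC correction it was -0.27 (limma adjusted p 0.0364). The transcripts of Pgls had a GC content of 65.4%, the highest of the 35 genes, whose lowest was 39.2% (Rpe), against a median of 50.4% over all genes tested. Annotated exons of Pgls overlap those of Fam129c, which was at 1.11 to 1.70 TPM.

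**Figure D3:**
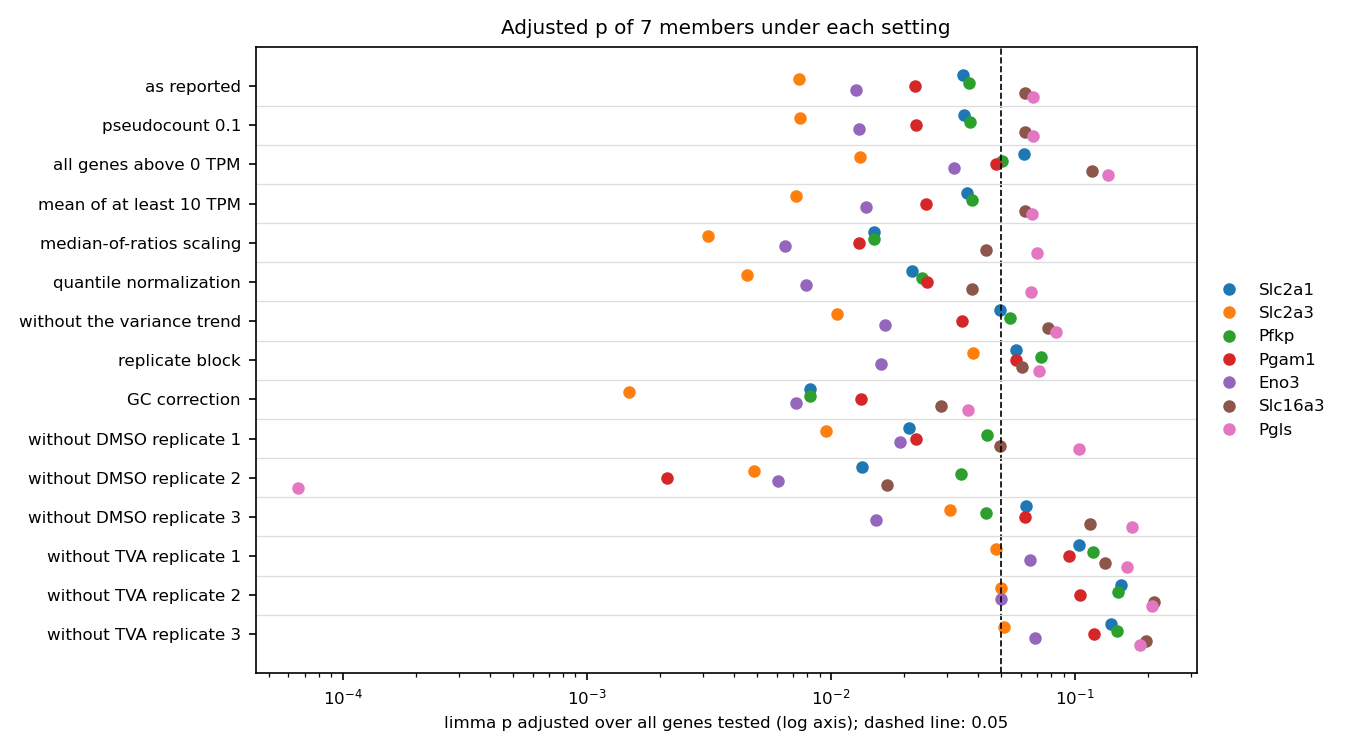
Limma adjusted p on a log axis for 7 of the genes as reported and under each of 14 alternative settings, with the dashed line at 0.05. Slc2a3 and Eno3 stay left of the line in most settings, whereas Slc2a1, Pfkp and Pgam1 cross it whenever a TVA library is left out, and Pgls moves to 6.59e-05 without DMSO replicate 2.

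The side branches held Gys1 (glycogen synthase), at 16.6 to 18.4 TPM with DMSO and 15.6 to 16.9 TPM with TVA, and Bpgm (bisphosphoglycerate mutase), at 14.7 to 16.6 TPM over all libraries. Neither passed (limma adjusted p 0.19 and 0.685). Over the 35 genes, TVA lay wholly below DMSO for 12 and wholly above for 5, and the groups overlapped for 18. Over all genes tested, 11.2% lay wholly below and 27.3% wholly above. The summed level of the 35 genes was 1.28%, 1.24% and 1.15% of all TPM in DMSO replicates 1, 2 and 3 and 1.15%, 1.15% and 1.14% in the TVA libraries, so DMSO replicate 3 was level with TVA.

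A further 59 genes of glucose, glycogen and lactate metabolism, none among the 35, were taken from a separate list, and 38 were tested. By limma 4 rose and 0 fell (at an unadjusted p under 0.05, 12 were higher and 3 lower), against 5.28% called higher and 3.23% called lower over all genes tested (21.5% and 10.3% unadjusted). The median log2 difference of these 38 genes was 0.05. Emb, whose product embigin is a chaperone of monocarboxylate transporters, was at 106, 102 and 104 TPM with DMSO and at 121, 120 and 121 TPM with TVA (log2 difference 0.21, SE 0.03, limma adjusted p 0.0166). Bsg (basigin), the better-known chaperone of MCT1 and MCT4, was at 467, 390 and 443 TPM with DMSO and at 400, 398 and 388 TPM with TVA, with overlap (limma adjusted p 0.216). The chaperone genes thus had estimates on opposite sides of 0, and only that of Emb passed. Bsg passed as lower in 1 of 14 alternatives (lowest limma adjusted p 0.0143).

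The other genes that rose were Pygb (glycogen phosphorylase, log2 difference 0.24), Gpd1l (a glycerol phosphate dehydrogenase-like enzyme, 0.28) and Mpi (mannose phosphate isomerase, 0.22), with limma adjusted p of 0.0279, 0.0322 and 0.0495. None of the 4 genes passed when a TVA library was omitted, and of the 4 only Emb passed when DMSO replicate 3 was omitted. With a replicate block none of the 4 passed, and Gpd1l did not pass with all genes above 0 TPM (0.0629). Mpi passed in 3 of 14 alternatives, with adjusted p from 0.0274 to 0.179, and failed among others after median-of-ratios scaling (0.0725), with quantile normalization (0.0661) and without DMSO replicate 1 (0.0534). Pgp (phosphoglycolate phosphatase), which did not pass, had the pattern of Pgls, at 61.2, 18.9 and 41.4 TPM with DMSO and at 19.2, 18.4 and 18.4 TPM with TVA, so that DMSO replicate 2 lay among the TVA libraries. It passed as lower in 1 of 14 alternatives (lowest limma adjusted p 0.000815).

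Of the regulators, Hif1a, which encodes the oxygen-sensitive subunit of HIF-1, was at 94.1, 96.1 and 96.6 TPM with DMSO and at 111, 118 and 117 TPM with TVA. It rose (log2 difference 0.27, SE 0.04, limma adjusted p 0.013), with adjusted p of 0.0857 without TVA replicate 2 and 0.086 without TVA replicate 3. Myc was at 336, 283 and 291 TPM with DMSO and at 267, 271 and 259 TPM with TVA. The groups did not overlap, but the difference did not pass (log2 difference -0.19, SE 0.07, limma adjusted p 0.105). It passed without DMSO replicate 2 (0.035). Transcript levels of Hif1a do not measure HIF-1 protein, which is set largely by degradation.

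The listed targets of HIF-1 outside glycolysis were examined beside the 35 genes. Of 18 tested, 6 fell and 0 rose by limma (at an unadjusted p under 0.05, 10 were lower and 0 higher), against the same 3.23% and 5.28% over all genes tested (10.3% and 21.5% unadjusted). Their median log2 difference was -0.10. Egln3, the prolyl hydroxylase that marks HIF subunits for degradation and is itself induced by HIF-1, was at 18.4, 15.5 and 16.6 TPM with DMSO and at 9.93, 9.28 and 9.62 TPM with TVA (log2 difference -0.75, SE 0.07, limma adjusted p 0.00196). It passed under all 14 alternatives. Ankrd37, P4ha2 (a collagen prolyl hydroxylase subunit) and Ak4 (a mitochondrial adenylate kinase) fell by 0.58, 0.42 and 0.30 on the log2 scale, with limma adjusted p of 0.0349, 0.0224 and 0.0248, and none of the 3 passed when any TVA library was omitted or with a replicate block (0.0718, 0.0624 and 0.0546). Ankrd37 (0.0832) and P4ha2 (0.0706) also failed without DMSO replicate 3, and Ankrd37 (0.0762) and Ak4 (0.058) with all genes above 0 TPM. The remaining called genes, Bnip3 and Ddit4, fell by 0.28 and 0.21 (limma adjusted p 0.048 and 0.0448). They passed in 6 and 5 of 14 alternatives, and Ddit4 failed after GC correction (0.117). The list held 7 genes called lower without DMSO replicate 2, 3 without DMSO replicate 3 and 1 when any TVA library was omitted. Over all 10866 genes tested, 1019, 151 and 64 to 74 were called lower in these settings. Pdk1, the kinase that restrains pyruvate entry into mitochondria, stayed between 32.9 and 34.7 TPM in all libraries.

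**Figure D4:**
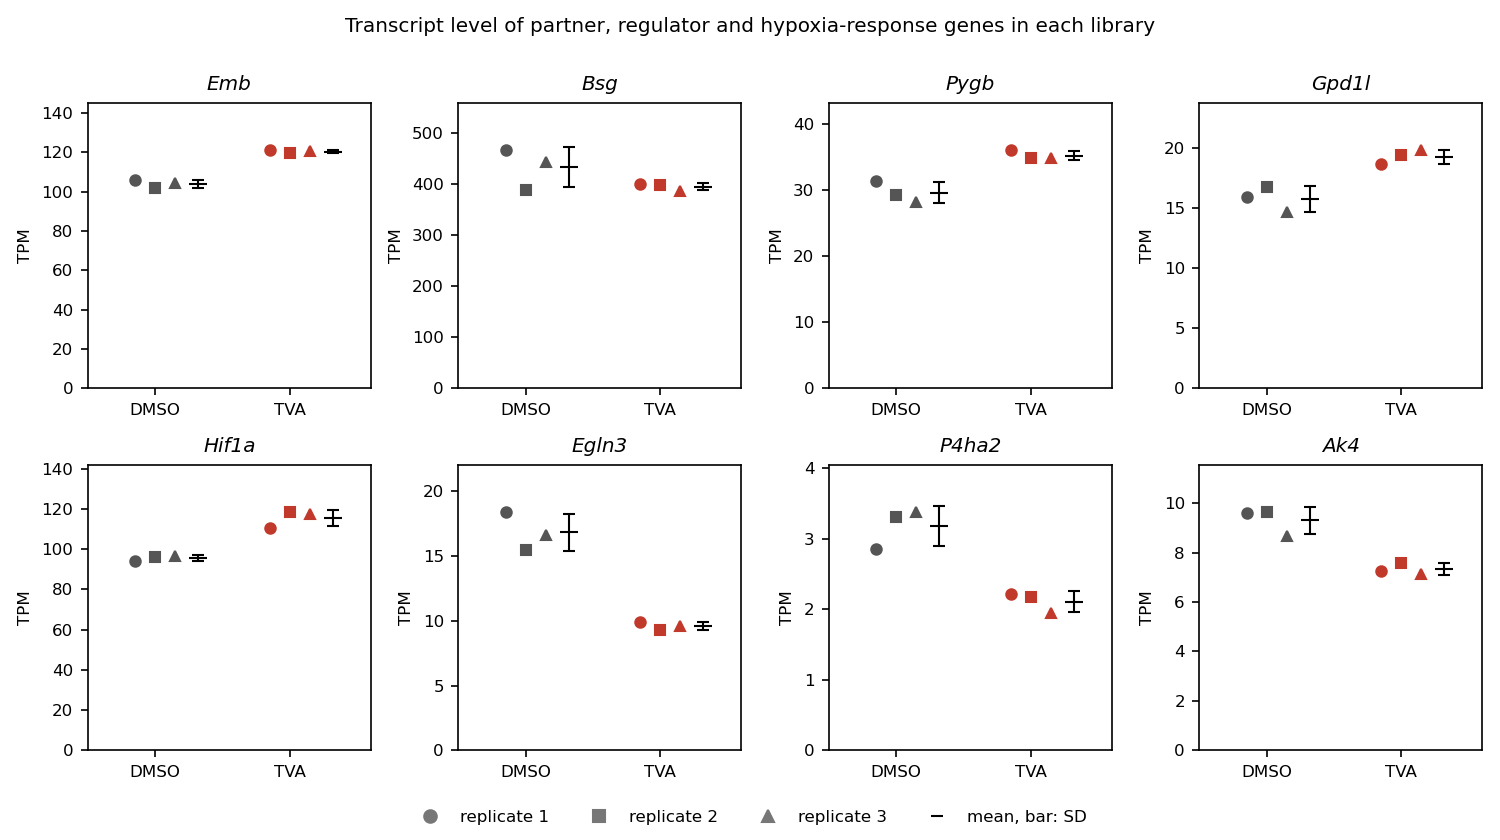
TPM in each library for 8 genes outside the list of 35: the transporter chaperones Emb and Bsg, Pygb and Gpd1l, the regulator Hif1a and the HIF-1 targets Egln3, P4ha2 and Ak4, with marker shape giving the replicate number and bars giving mean ± SD of 3 libraries. The groups overlap for Bsg and for no other gene shown, with TVA above DMSO for Emb, Pygb, Gpd1l and Hif1a and below for the HIF-1 targets.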

How the data were processed

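RNA-seq was performed on 6 libraries of activated CD8+ T cells (3 DMSO, 3 TVA, 20 µM, 24 h). The authors deposited 1 table of TPM per gene symbol. The submitters' processing notes name STAR, RSEM and the mouse build mm10, and versions and annotation are not given in the sources used here. The labels give an RNeasy extraction and a SMARTER mRNA-Seq kit. Depth is unknown and no counting interval is given. Groups and replicate numbers came from the sample titles.

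TPM values were used as deposited on the log2(TPM + 1) scale, which understates the change of low genes. Genes with at least 1 TPM in at least 3 libraries entered a limma 3.58.1 fit in R 4.3.3 (variance trend, two-sided, Benjamini-Hochberg over all 10866 genes tested, threshold 0.05), without a replicate block, because deviations from the group mean were not shared by libraries of the same number (correlations 0.157, 0.0348 and -0.0767). The fit was tested on simulated data. Values in each library were given for genes past the threshold and for the most abundant gene of each isozyme family, with others added where groups did not overlap, after their values were seen. Shares of isozymes were compared by exact permutation tests.

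The members and lists were chosen with earlier results of these data known. So was the GC correction, a loess curve (span 0.5) on transcript GC content subtracted within each library (GC known for 97.4% of genes tested). The other alternatives were a pseudocount of 0.1, all genes above 0 TPM, genes averaging at least 10 TPM, median-of-ratios scaling, quantile normalization, no variance trend, a replicate block and the omission of each library in turn. Gene positions, exon overlaps and shared 31-base words came from GENCODE vM21 (GRCm38), and promoter sequences from RefSeq. Marker lists for CD4 T, NK, B and red cells were checked, and of their genes tested 1 was called, a red cell gene that was lower. Of the CD8+ T cell markers Cd3g was called higher. Figures were drawn with matplotlib 3.10.9.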

Additional observations from a re-analysis of the deposited data

How the results depend on the processing

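The list of 35 genes gave 484 values under alternatives, of which 443 kept both direction and call, 20 lost their call, 11 gained one and 10 changed sign. The 5 genes called lower became 3 with all genes above 0 TPM, 2 with the replicate block and 0 to 7 with a library left out. The 0 called higher became 1 without the variance trend, 1 after GC correction and 0 to 1 with a library left out. The 4 other pathway genes called higher became 2 with all genes above 0 TPM, 0 with the replicate block and 0 to 6 with a library left out, and the 0 called lower became 1 with all genes above 0 TPM, 1 after median-of-ratios scaling, 1 with quantile normalization, 1 without the variance trend, 2 after GC correction and 0 to 3 with a library left out. The 6 HIF-1 targets called lower became 2 with all genes above 0 TPM, 1 with the replicate block and 1 to 7 with a library left out. Over all genes, 925 calls became 218 with the replicate block, 608 when genes had to average 10 TPM, 494 with all genes above 0 TPM and 102 to 2242 with a library left out. Of these calls 62.1% were higher, against 35.4% after median-of-ratios scaling, 46.1% with quantile normalization, 52.5% after GC correction and 42.7% with the replicate block. The cause was not tested, except that more genes were tested above 0 TPM (16749) and fewer at 10 TPM (7563).

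Values near 0 that changed sign were Pfkfb3 and Taldo1 (both -0.01 after median-of-ratios scaling) and Rpe (-0.01 after GC correction). With a library left out, the log2 difference ran from -0.02 to 0.11 for Pfkfb2, -0.05 to 0.04 for Pgk1, -0.09 to 0.01 for Slc16a1, -0.01 to 0.08 for G6pdx, -0.1 to 0.02 for Tkt, -0.0032 to 0.07 for Taldo1 and -0.01 to 0.08 for Bpgm. Among isozyme shares, Aldoc moved by 0.00128 points after quantile normalization, and with a library left out the difference ran from -0.0168 to 0.00112 points for Aldoc, -0.0239 to 0.00725 for Eno2, -0.269 to 0.474 for Hk1 and -0.142 to 0.317 for Pfkfb2. Depth is unknown, so what it limits cannot be stated.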
